A study of Rattus norvegicus with 8 samples.

Results

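The cytochrome P450 genes of families 1 to 3 were followed in the livers of diabetic rats fed an extract of persimmon peel. Members were the genes with a symbol of these families on the array, found as probe sets annotated with exactly 1 such symbol. A probe set is a group of short probes for 1 transcript. The rule found 34 probe sets for 32 genes, out of 14217 named genes in all, and it used no measured value to choose them. On the persimmon peel diet were 4 male Goto-Kakizaki rats, a lean strain bred for type 2 diabetes, that ate AIN-93G, a purified rodent diet, with the extract added, for 12 weeks. The other 4 male rats of the same strain and source ate AIN-93G alone for the same time. All were 18 weeks old when the livers were taken. The strain carries its diabetes in both groups, so no healthy strain or other sex was compared, and the labels give neither the dose nor the make-up of the extract. Each liver was measured on 1 array, and the question asked was how the extract altered gene expression in the liver.

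Cytochrome P450 enzymes are heme proteins of the endoplasmic reticulum that insert 1 oxygen atom into drugs, plant compounds, steroids and fatty acids, with electrons from P450 reductase. In hepatocytes, families 1 to 3 make up the main defence against foreign chemicals. Family 1 is switched on by the aryl hydrocarbon receptor AHR, much of families 2b and 3a by the nuclear receptors CAR and PXR, and many 2c, 2a and 3a genes of the rat differ between the sexes under growth hormone. The 2j and some 2c enzymes turn arachidonic acid into signalling lipids called epoxides.

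The values were taken as deposited, as signals in MAS5 units, and compared as log2. The array medians were 33.2 to 39.2 units, and pairs of arrays correlated with r from 0.967 to 0.986 over the 15521 tested probe sets. A set was tested if its mean log2 signal was in the upper 50% of all sets, which meant a mean of at least 34.4 units. The ratio of the middle to the 3' control set of beta-actin, a measure of RNA integrity and of labelling, did not overlap between the diets. It was -1.06 ± 0.11 on the persimmon peel diet and -0.76 ± 0.02 on the control diet (log2, SD, n = 4 each). By an exact two-sided permutation test p was 0.0286, the lowest that 4 against 4 arrays can reach, or 0.0571 adjusted over 4 ratios, which misses 0.05. The 5' to 3' ratio of beta-actin gave the same p values, at -1.97 ± 0.22 on the persimmon peel diet and -1.68 ± 0.12 on the control diet. For GAPDH the middle to 3' ratio was close between the diets, at -0.59 ± 0.05 on the persimmon peel diet and -0.58 ± 0.03 on the control diet (exact permutation p = 0.857). Its 5' to 3' ratio was -0.43 ± 0.08 on the persimmon peel diet and -0.29 ± 0.10 on the control diet (exact permutation p = 0.0857, adjusted 0.114). The summed signal of 13 tested hepatocyte markers ran from 115205 to 124351 units on the persimmon peel diet. On the control diet it ran from 124701 to 132264, so the diets lay apart by a small margin. Of these 13 genes, 12 had a log2 fold change below 0 and 0 passed the test. Hnf4a was above 0, at 0.23 (SE 0.08). All 13, albumin among them, had mean signals of at least 3149 units (Hnf4a). The markers other than Hnf4a had means above 4000 units, a limit chosen after the values were seen. Of all 249 tested genes with a mean of at least 4000 units, 85.5% were below 0. For the 8 tested Kupffer cell markers the sums were 5712 to 9266 on the persimmon peel diet and 5089.7 to 6569 on the control diet, with 0 of 8 called. Of these 8 markers 1 was below 0, against 47.4% of all tested genes, and their median log2 fold change was 0.13. For the 6 tested markers of sinusoidal endothelium the sums were 3968 to 5014 on the persimmon peel diet and 4766 to 5083 on the control diet. Fcgr2b was called lower (log2 fold change -0.42, SE 0.08, limma adjusted p = 0.0090) and 5 others were not called. Across all tested genes 1.93% were called lower, and 1 call in 6 is too few to set apart from that. The stellate cell sums over 6 tested markers were 902 to 1185 on the persimmon peel diet and 945 to 1347 on the control diet, and the 1 tested cholangiocyte marker, Epcam, gave 196 to 224 and 161 to 234 units, while Krt19 and Krt7 were below the tested range. The part of RNA integrity and of cell make-up in the results below was not tested, and in whole liver fewer cells of a type and less RNA per cell cannot be told apart.

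Of the 32 P450 genes, 24 had a brightest probe set in the tested range, and 1 of these, Cyp2j3, was lower on the persimmon peel diet while 0 were higher. A call meant an adjusted p under 0.05 (limma, Benjamini-Hochberg over all 15521 tested sets). Across all 9174 tested genes, 1.93% were called lower and 0.469% higher, and 1 call in 24 members is too few to set apart from that background. At an unadjusted p under 0.05, 5 of the 24 were lower (Cyp2j3, Cyp3a18, Cyp3a23-3a1, Cyp3a2 and Cyp2b3) and 0 higher, against 9.48% and 6.8% of all tested genes. The log2 fold changes, persimmon peel minus control, ran from -0.54 for Cyp3a18 to 0.25 for Cyp2u1, with a median of -0.08 over the 24 and of 0.014 over all tested genes. For 20 of the 24 the 95% interval, not adjusted for the number of genes, lay wholly within 0.5 log2 units of no change. Taken over all members, the intervals reached from -0.90 to 0.53.

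**Figure D1:**
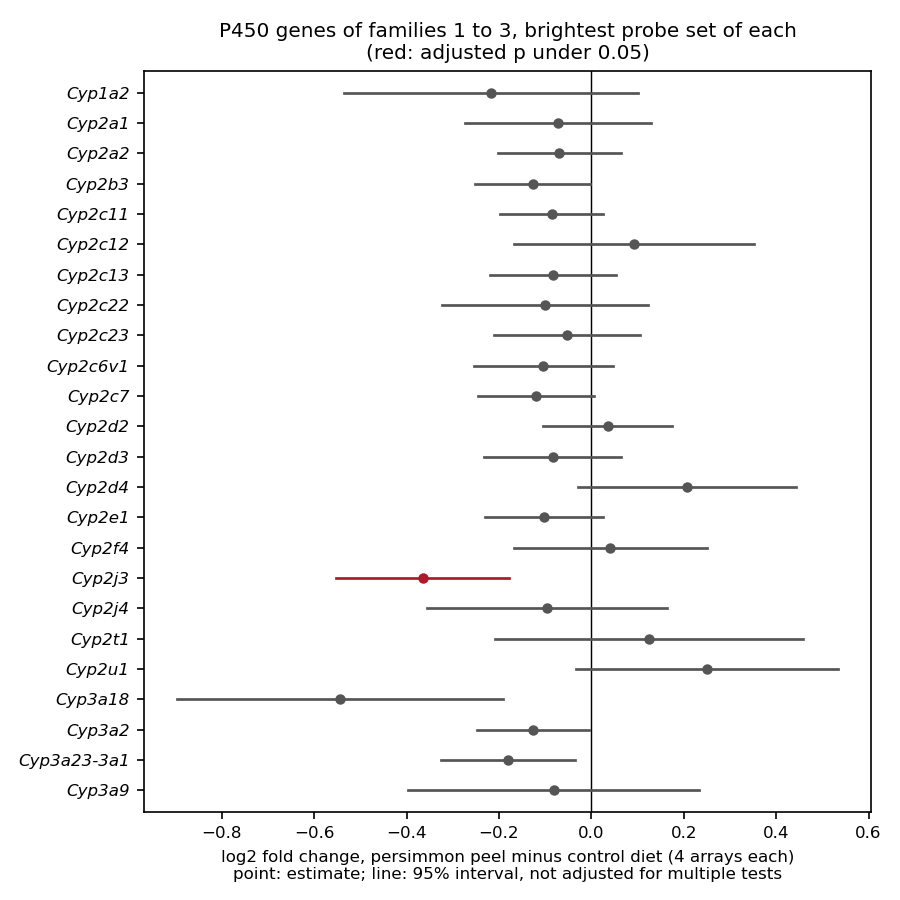
Log2 fold change of the 24 tested P450 genes (x axis, persimmon peel minus control diet; points with 95% intervals, 4 arrays per diet), with the 1 called gene in red. Cyp2j3 at -0.37 is the called gene, and Cyp3a18 at -0.54 has the largest shift with a wider interval.

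Cyp2j3 encodes a rat epoxygenase of arachidonic acid. Its brightest set read 749, 887, 786 and 896 units in the persimmon peel livers, against 1127, 1012, 1069.9 and 1058 units in the control livers. Every persimmon peel liver lay below every control liver. The means were 829.7 ± 73.3 and 1066 ± 47.2 (SD, n = 4 each), a log2 fold change of -0.37 (SE 0.09, 95% interval -0.55 to -0.18, limma adjusted p = 0.0279). A dimmer second set of the gene also kept the diets apart, with 298, 343, 294 and 336 units on the persimmon peel diet and 367, 377, 386 and 401 on the control diet. Its log2 fold change of -0.27 (SE 0.10) did not pass (limma adjusted p = 0.132). The call of Cyp2j3 held in 7 of 18 alternative settings, with adjusted p between 0.0189 and 1.00, and the sign stayed negative in 18 of 18. It was lost without persimmon peel array 1 or 3 (limma adjusted p = 0.0983 and 0.0528) or without control array 1, 3 or 4 (0.0952, 0.0665 and 0.0771), and with the beta-actin ratio as a covariate the log2 fold change was -0.07.

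Its neighbours in the same gene cluster on chromosome 5 did not share the call. Cyp2j4 read 582, 563, 761 and 697 units on the persimmon peel diet and 729, 703, 567 and 779 on the control diet. These values overlapped widely, with a log2 fold change of -0.10 (95% interval -0.35 to 0.16). Cyp2j10 was below the tested range at 53.4, 29.9, 47.7 and 23.8 units on the persimmon peel diet and 36.2, 29.1, 42.1 and 17.4 on the control diet. Another epoxygenase of arachidonic acid, Cyp2c23, read 4643, 4599, 5450.1 and 4532 units on the persimmon peel diet and 4595, 5215, 4890.1 and 5207 on the control diet. It overlapped between the diets (log2 fold change -0.05, 95% interval -0.21 to 0.11) and was at 0.034 under quantile normalization. Of the 3 tested epoxygenase genes, 1 was called lower, against 1.93% of all tested genes, and 1 call is too few to set apart from that.

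The 4 Cyp3a genes all had log2 fold changes below 0, and 0 of the 4 passed. Over all tested genes 47.4% were below 0, and 85.5% of those with a mean of at least 4000 units. Only Cyp3a23-3a1 and Cyp3a2 were that bright, while Cyp3a18 and Cyp3a9 had means of 511 and 512 units. Of the 4, Cyp3a9 alone changed sign in any alternative, to 0.19 with the beta-actin covariate and to 0.017 without control array 3. The Cyp3a genes are the rat members of the subfamily that handles the widest range of drugs and hydroxylates steroids such as testosterone. Cyp3a18, higher in male than in female rat liver, read 312, 386, 590.0 and 453 units in the persimmon peel livers and 576, 536, 762 and 616 in the control livers. The persimmon peel array 3 fell among the control arrays and the other 3 lay below all of them. Its log2 fold change was -0.54 (SE 0.17, 95% interval -0.90 to -0.19, limma adjusted p = 0.0749). Without persimmon peel array 3 it passed, at -0.70 (limma adjusted p = 0.023). Cyp3a18 has 1 probe set here, so no second set could check it.

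Cyp3a23-3a1, the classic gene induced through PXR in the rat, read 6964, 6982, 7544 and 8093 units on the persimmon peel diet and 7889, 8189, 8240.0 and 9192 on the control diet. Only persimmon peel array 4 reached into the control range. The log2 fold change was -0.18 (SE 0.07, limma adjusted p = 0.153). Cyp3a2, a male-specific testosterone hydroxylase in adult rats, read 7231, 7109, 7689 and 7727 units on the persimmon peel diet and 8221, 8253, 7789 and 8196 on the control diet. Here all persimmon peel arrays lay below all control arrays, by a small margin to control array 3 (log2 fold change -0.13, SE 0.06, limma adjusted p = 0.231). Cyp3a9, higher in female rats, read 481, 548, 504 and 462 units on the persimmon peel diet and 622, 372, 646 and 514 on the control diet, and overlapped fully (-0.08, 95% interval -0.40 to 0.23). Cyp2j3 and Cyp3a2 were the 2 members whose diets did not overlap, both lower and 0 higher. Over all tested genes 7.21% lay apart as lower and 3.24% as higher.

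**Figure D2:**
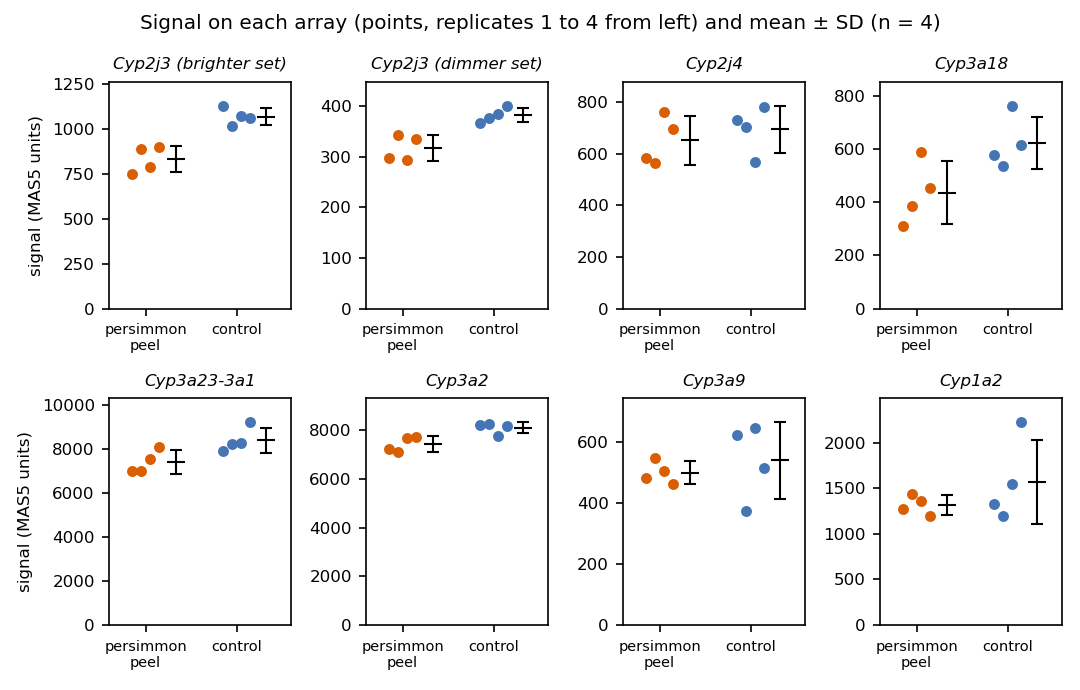
Signal (y axis, MAS5 units, from 0) of both Cyp2j3 probe sets, Cyp2j4, the 4 Cyp3a genes and Cyp1a2 on each array, with persimmon peel arrays in orange and control arrays in blue; bars are mean ± SD, n = 4. The diets lie apart for both Cyp2j3 sets and for Cyp3a2 and overlap in the other panels.

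The 250 bases before the transcription start are shown for Cyp2j3, the called gene, and for the 3 Cyp3a genes with the smallest p, because the Cyp3a genes are textbook targets of PXR. Capitals mark each copy of AGTTCA or AGGTCA, the half-sites that PXR and CAR can bind in pairs, on either strand. The sequences are from RefSeq, build GRCr8.
Cyp2j3 (chr5:116360500-116360749, minus strand): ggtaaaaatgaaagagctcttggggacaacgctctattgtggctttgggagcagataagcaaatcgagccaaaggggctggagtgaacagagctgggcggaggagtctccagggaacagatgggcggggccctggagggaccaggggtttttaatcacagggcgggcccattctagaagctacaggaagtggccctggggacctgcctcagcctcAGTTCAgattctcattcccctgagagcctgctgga
Cyp3a18 (chr12:13994062-13994311, plus strand): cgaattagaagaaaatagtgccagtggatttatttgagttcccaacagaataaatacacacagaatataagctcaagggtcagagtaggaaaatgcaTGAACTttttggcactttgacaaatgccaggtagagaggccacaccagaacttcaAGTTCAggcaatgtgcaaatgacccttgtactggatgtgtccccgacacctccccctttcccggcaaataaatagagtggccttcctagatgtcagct
Cyp3a23-3a1 (chr12:14398804-14399053, minus strand): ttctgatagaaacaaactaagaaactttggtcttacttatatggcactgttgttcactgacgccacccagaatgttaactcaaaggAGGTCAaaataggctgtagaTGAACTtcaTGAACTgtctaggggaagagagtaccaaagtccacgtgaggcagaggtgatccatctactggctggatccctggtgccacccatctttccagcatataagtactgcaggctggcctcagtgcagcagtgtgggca
Cyp3a2 (chr12:14343858-14344107, minus strand): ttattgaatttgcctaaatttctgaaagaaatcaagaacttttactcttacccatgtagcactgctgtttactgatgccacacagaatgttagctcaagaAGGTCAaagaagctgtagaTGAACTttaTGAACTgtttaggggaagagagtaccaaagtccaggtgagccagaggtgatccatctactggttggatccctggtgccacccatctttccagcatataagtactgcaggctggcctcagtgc
The letters AGTTCA stood once in Cyp2j3 and 2 times in each of the 3 Cyp3a sequences. In Cyp3a23-3a1 and Cyp3a2 both copies ran in the same direction with 3 bases between them, and AGGTCA stood once before them. A pair of this spacing in the promoter of rat Cyp3a23 is known as a PXR-binding element. In Cyp3a18 the copies ran in opposite directions. Both strands were searched. AGTTCA was found in 9 of the 29 members with a RefSeq promoter and in 12.2% of 33469 promoters of this length, and AGGTCA in 11 of 29 and 14.1%. Cyp1a1, Cyp2a2 and Cyp2c6v1 had no RefSeq promoter here and were not searched. GCGTG, the core letters that AHR binds, was found in 3 of 29 members (Cyp1b1, Cyp2t1 and Cyp2u1) and in 25.9% of all promoters. TTCNNNGAA, the letters of a STAT5 site, was found in 2 of 29 (Cyp2j4 and Cyp2t1) and in 7.67%. The 9 with AGTTCA were the 4 Cyp3a genes, Cyp2j3, Cyp2j4, Cyp2c12, Cyp2c13 and Cyp2g1, while Cyp2j10 had 0 copies. The 11 with AGGTCA were Cyp1a2, Cyp2b12, Cyp2b21, Cyp2c7, Cyp2c11, Cyp2c22, Cyp2e1, Cyp2s1, Cyp2u1, Cyp3a2 and Cyp3a23-3a1. They include Cyp2u1, the member with the highest log2 fold change. Over these 250 bases Cyp3a23-3a1 and Cyp3a2 were 79.2% identical in a global alignment, against 54.6% for Cyp3a18 and Cyp3a23-3a1. A letter match is a description of the window and not a shown binding site.

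In family 1, whose genes respond to AHR, 1 of 3 genes was tested and it was not called. Cyp1a2, which clears caffeine and activates aromatic amines, read 1271, 1441, 1357 and 1195 units on the persimmon peel diet and 1325, 1191, 1543 and 2223 on the control diet. Control array 4 stood above the rest and the other 7 arrays overlapped (log2 fold change -0.22, SE 0.15, limma adjusted p = 0.452). Without control array 4 the log2 fold change was -0.035, and without control array 2 it was -0.34. Cyp1a1, the most inducible AHR target, stayed below the tested range at 3.25, 38.0, 6.85 and 32.1 units on the persimmon peel diet and 5.58, 1.34, 5.65 and 4.62 on the control diet. Persimmon peel arrays 2 and 4 alone exceeded 14.5 units, the highest reading of 27 sets for bacterial transcripts on any array. Cyp1b1, found mostly outside hepatocytes, read 16.9, 31.0, 16.2 and 20.4 units on the persimmon peel diet and 18.4, 21.3, 12.4 and 26.3 on the control diet, also below the range. Both Cyp1a1 and Cyp1b1 overlapped between the diets. With no filter on dim sets they entered the test, and neither was called (limma).

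Among the genes that growth hormone makes male-biased in rat liver, 5 of 5 had log2 fold changes below 0 and 0 passed, Cyp3a18 and Cyp3a2 being 2 of them. Over all tested genes 47.4% were below 0. Among genes with a mean of at least 4000 units, a limit chosen after the values were seen, 85.5% were below 0. All of the 5 except Cyp3a18 were that bright. Cyp2c11, the main male-specific P450, read 9038, 8859, 9409 and 9196 units on the persimmon peel diet and 9383, 9853, 9591 and 9915 on the control diet. The overlap was limited to persimmon peel array 3 and control array 1 (-0.09, SE 0.05, limma adjusted p = 0.389). Cyp2c13 read 7654, 7071, 8487 and 8049 units on the persimmon peel diet and 8030.1, 8494, 8069.8 and 8471 on the control diet (-0.08, SE 0.06). Cyp2a2, a male testosterone hydroxylase, read 5073, 4723, 4837 and 4771 units on the persimmon peel diet and 4899.5, 5451, 5099.8 and 4915 on the control diet (-0.07, SE 0.06). Both genes overlapped between the diets, and under quantile normalization Cyp2a2 was at 0.0091.

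Of the 4 female-biased genes 0 passed as well, with 3 below 0 and Cyp2c12 above it, beside 47.4% of all tested genes below 0. Cyp2c12, the female steroid sulfate hydroxylase, nevertheless gave a clear signal in these male livers, with 3172, 2952, 3511 and 2538 units on the persimmon peel diet and 3495, 2367, 3097 and 2518 on the control diet. Its arrays were mixed between the diets (log2 fold change 0.09, 95% interval -0.17 to 0.35), and its sign turned in 2 alternatives (-0.05 and -0.027). The Cyp2c genes are close copies of each other. How much of a set's signal came from relatives was not tested, for them or for the other P450 subfamilies. Cyp2c7, a retinoic acid hydroxylase, read 8881, 8366, 9436 and 9113 units on the persimmon peel diet and 9119, 9706, 9920.0 and 10122 on the control diet (-0.12, SE 0.06, limma adjusted p = 0.282). Cyp2a1, a testosterone hydroxylase, read 2717, 2534, 2486 and 2852 units on the persimmon peel diet and 2339.8, 3188, 2643 and 3026 on the control diet (-0.07, 95% interval -0.27 to 0.13). Neither gene kept the diets apart.

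The other tested members of family 2 were not called. Cyp2b3, a constitutive liver member of the 2b subfamily, read 5862, 5992, 6545 and 6115 units on the persimmon peel diet and 6717, 6497, 6785 and 6752 on the control diet. Persimmon peel array 3 and control array 2 crossed by a small margin, and the rest lay apart (log2 fold change -0.13, SE 0.06, limma adjusted p = 0.244). Cyp2e1, which oxidises ethanol and acetone and is known to be induced in rats made diabetic, read 9013, 9226, 10229.7 and 10005 units on the persimmon peel diet and 10034, 10099, 10207 and 10917 on the control diet. Its log2 fold change was -0.10 (SE 0.06, 95% interval -0.23 to 0.03, limma adjusted p = 0.367). Cyp2c6v1 read 8795, 7697, 9457 and 8979.5 units on the persimmon peel diet and 8561, 9568, 9455 and 9896 on the control diet (-0.10, SE 0.07). In both genes persimmon peel array 3 was the highest of its diet.

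The 6 members above 0 had mean signals under 4000 units, except Cyp2d2. Cyp2u1, an enzyme that hydroxylates long-chain fatty acids, read 109, 95.1, 110.4 and 104 units on the persimmon peel diet and 75.9, 103, 88.4 and 86.3 on the control diet (log2 fold change 0.25, SE 0.13, limma adjusted p = 0.316). Only control array 2 reached the persimmon peel range. Cyp2d4 read 390.4, 380.4, 500.2 and 418 units in its brighter set on the persimmon peel diet and 338, 359, 355 and 408 on the control diet (0.21, SE 0.11, limma adjusted p = 0.322). Without persimmon peel array 3 the brighter set was at 0.12. Its dimmer set had the other sign, at -0.03 (95% interval -0.31 to 0.25), so the 2 sets of Cyp2d4 disagreed. The remaining 5 tested genes, Cyp2c22, Cyp2d2, Cyp2d3, Cyp2f4 and Cyp2t1, had log2 fold changes from -0.10 to 0.12, and the diets overlapped in all 5. The 8 genes below the tested range were Cyp1a1, Cyp1b1, Cyp2a3, Cyp2b12, Cyp2b21, Cyp2g1, Cyp2j10 and Cyp2s1. Their highest reading on any array was 53.4 units, for Cyp2j10. Several are known mainly from lung, nose or skin, such as Cyp2g1 of the olfactory mucosa.

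That most members sat slightly below 0 was shared with other strong signals. In all, 18 of the 24 tested members had a log2 fold change below 0, against 47.4% of all tested genes. The 13 members with a mean of at least 4000 units, a limit chosen after the values were seen, ran from -0.18 to 0.04, with 12 below 0. Of all 249 genes at that signal, 85.5% were below 0 and 4.02% were called lower. Among the 11 tested members under 4000 units, 6 were below 0. Under quantile normalization 15 of the 24 stayed below 0, and 9 of the 13. The mean signals of these 13 sets ran from 4881 to 9950 units, and the highest reading on any array was 16071 units. The pooled SD within a diet was 0.09 (median, log2) for the 13 members and 0.09 for all genes at that signal.

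**Figure D3:**
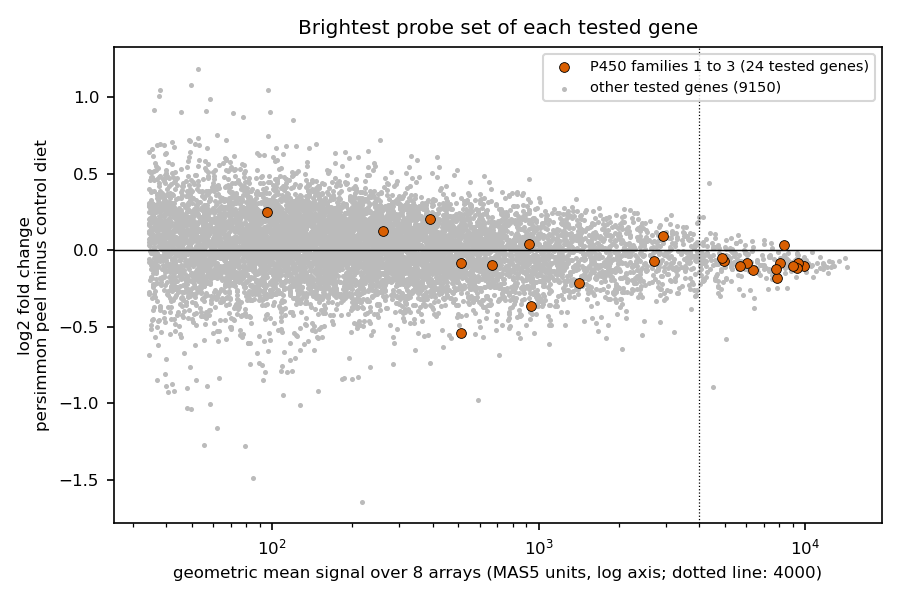
Log2 fold change (y axis, persimmon peel minus control diet) against mean signal over 8 arrays (x axis, log scale) for the brightest set of each tested gene, with P450 genes in orange and all other tested genes in grey. Right of the dotted line at 4000 units, 12 of 13 P450 genes and 85.5% of all genes lie below 0.

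Single arrays moved many members at once. Persimmon peel array 2 gave the lowest reading of the 8 arrays for 9 of the 24 tested genes and array 1 for 6, while neither gave the highest for any. Control array 4 gave the highest reading for 8 genes and persimmon peel array 3 for 7. The median deviation of the 24 members from their own means was -0.08, -0.10, 0.07 and -0.02 log2 units on persimmon peel arrays 1 to 4, against 0.0032, 0.06, 0.04 and 0.09 on control arrays 1 to 4. Over all tested genes the deviation of persimmon peel array 3 was 0.17, higher than on any other array. For the P450 genes as a group, persimmon peel array 3 lay within the range of the control arrays, while its Cyp2j3 reading was below all of them.

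**Figure D4:**
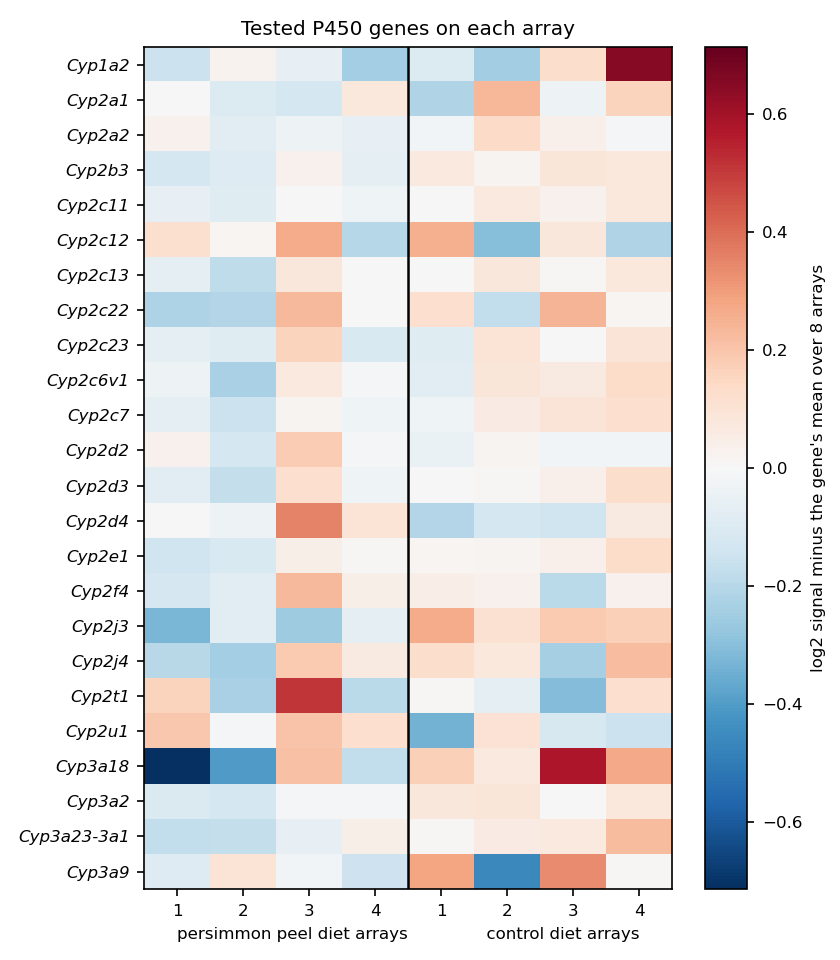
Log2 signal of the 24 tested P450 genes (rows) on the 8 arrays (columns, persimmon peel diet left of the line, control diet right), each centred on the gene's mean; red is above and blue below the mean. Persimmon peel arrays 1 and 2 are mostly blue, with 6 and 9 genes at their lowest, and Cyp2j3 is blue on all 4 persimmon peel arrays.

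The genes that regulate and serve these enzymes were taken from 4 lists of 44 genes, of which 36 were tested. None was called in either direction (limma), with 10 lower and 0 higher at an unadjusted p under 0.05 and the smallest adjusted p at 0.0872. Over all tested genes 9.48% were lower and 6.8% higher at that unadjusted p. In 4 of the 36 the diets lay apart, all lower, against 7.21% of all tested genes apart as lower and 3.24% as higher. Among 6 tested receptors and cofactors 5 were below 0, against 47.4% of all tested genes. Nr1i3, which encodes CAR, read 273, 284, 301 and 304 units on the persimmon peel diet and 337, 361, 347 and 624 on the control diet. The diets lay apart, and control array 4 stood far above the rest (log2 fold change -0.47, SE 0.16, limma adjusted p = 0.116). Rxra, the partner receptor of CAR and PXR, read 156, 151, 166 and 105 units on the persimmon peel diet and 179, 165, 189 and 237 on the control diet (-0.42, SE 0.16, limma adjusted p = 0.141). Rxra overlapped only through persimmon peel array 3 and control array 2. Nr1i2, which encodes PXR and is named here after its values were seen, was at -0.23 (SE 0.10, limma adjusted p = 0.217). Ahr and its partner Arnt were below the tested range and so are not among the 36. Ahr was at 2.73 to 24.7 units on the persimmon peel diet and 28.7 to 75.5 on the control diet. Arnt was at 13.0 to 23.7 units on the persimmon peel diet and 34.4 to 48.7 on the control diet. For both dim genes the diets lay apart, with the persimmon peel diet lower. With no filter on dim sets Arnt was called lower (log2 fold change -1.31, limma adjusted p = 0.0375) and Ahr was not called.

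The supply of electrons and heme showed no call. Of 8 electron donors and partners, 6 were below 0, against 47.4% of all tested genes. Cyb5a, Pgrmc1 and Ephx1 had means above 4000 units, where 85.5% of all tested genes were below 0. Cyb5b, a cytochrome b5 of the mitochondrial outer membrane, read 630.0, 743, 681 and 701 units on the persimmon peel diet and 825, 813, 842 and 825 on the control diet. It lay apart between the diets (log2 fold change -0.27, SE 0.08, limma adjusted p = 0.0872). Pgrmc1, a heme-binding partner of P450 enzymes, read 6826, 7181, 7034 and 7071 units on the persimmon peel diet and 7807, 8091, 7352 and 8881 on the control diet, also apart (-0.19, SE 0.06, limma adjusted p = 0.107). Of 13 heme genes, 5 were below 0, against the same 47.4%. Alas1, the first enzyme of heme synthesis, read 1676, 1332, 2146 and 1756 units on the persimmon peel diet and 2357, 1539.7, 2517 and 2911 on the control diet (-0.42, SE 0.17, limma adjusted p = 0.182). Control array 2 was inside the persimmon peel range and the other 3 control arrays above it. Ppox, a later enzyme of heme synthesis and the second of this list by p, read 233, 237, 251 and 213 units on the persimmon peel diet and 213, 224, 209 and 206 on the control diet (0.13, SE 0.10, limma adjusted p = 0.519).

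In the growth hormone list 4 of 9 tested genes were below 0, against 47.4% of all tested genes. Ghr, the receptor, read 4237, 4065, 4689 and 4710.2 units on the persimmon peel diet and 5120.3, 4760.3, 5079 and 5352 on the control diet in its brightest set. The diets lay apart (log2 fold change -0.20, SE 0.07, limma adjusted p = 0.116). When the tested sets of Ghr were averaged, the log2 fold change was -0.61 and passed (limma adjusted p = 0.00345). Jak2, the kinase bound to that receptor, read 13.1, 47.4, 46.2 and 33.4 units on the persimmon peel diet and 56.0, 58.8, 47.4 and 44.3 on the control diet. It was dim, with the lowest reading on persimmon peel array 1 (-0.71, SE 0.33, limma adjusted p = 0.249). A pair of transcription factors that act on sex-biased P450 genes, named after their values were seen, spread widely inside each diet. Onecut1 read 1359.6, 179, 1046 and 292 units on the persimmon peel diet and 1663, 1075, 717 and 141 on the control diet. Bcl6, a repressor that growth hormone pulses lower, read 224, 1262, 465 and 1009 units on the persimmon peel diet and 223, 355, 934 and 1346 on the control diet. The 8 arrays ranked in exactly opposite order for Onecut1 and Bcl6, which was not tested in this pair picked by its values. Neither gene was called between the diets (log2 fold changes -0.32 with SE 0.68 and 0.10 with SE 0.54).

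**Figure D5:**
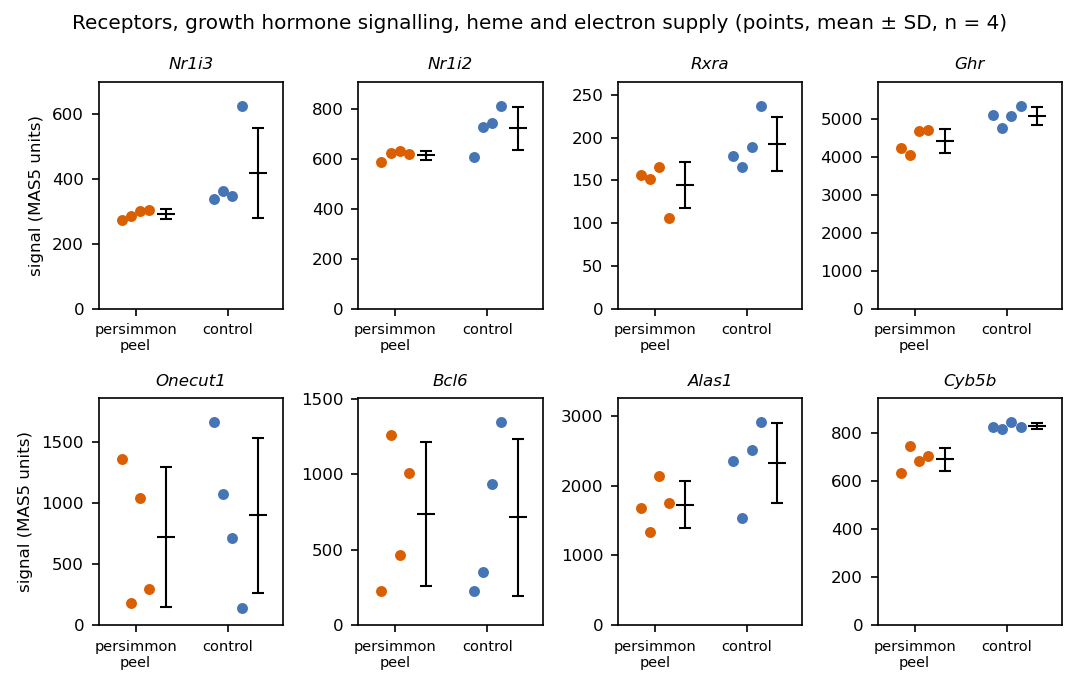
Signal (y axis, MAS5 units, from 0) of 8 genes that regulate or serve P450 enzymes on each array, with persimmon peel arrays in orange and control arrays in blue; bars are mean ± SD, n = 4. Nr1i3, Ghr and Cyb5b lie apart between the diets without passing the test, and Onecut1 and Bcl6 range widely within both.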

How the data were processed

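Liver RNA from 8 rats was measured on 1-colour Affymetrix arrays, 1 array per animal. The authors deposited linear intensity values of 31099 probe sets, and the submitters' processing notes name MAS5, which yields 1 signal per probe set. No version, scaling target or detection call is stated in the labels. Per the labels, cRNA was made from 2 µg of total RNA. Groups came from the sample titles, and 0 columns were left unused.

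Values were log2 transformed with no pseudocount. The array medians spanned 0.24 log2 units, so no centring was applied. The 57 control sets and the dimmest 50% of the other 31042 sets were left out. The diets were compared with limma 3.58.1 in R 4.3.3 (two-sided, lmFit and eBayes with a trend on intensity). Differences are persimmon peel minus control, with Benjamini-Hochberg adjustment over the 15521 tested sets. Each gene was represented by its brightest set, and further sets served as a check. Gene names came from the platform annotation. All 34 member sets were found in RefSeq by gene number, and 0 symbols changed. The fit was tested on simulated data. Single control ratios used an exact permutation test. No sequencing depth exists for arrays, and 4 arrays per diet limit the precision.

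The members, the role groups, the lists and the alternatives were chosen with earlier results of these data known. Values on every array were given for the called gene, the 12 members with the smallest p and the role groups (AHR, CAR and PXR, male-biased, female-biased, epoxygenases), and for each list of partner genes the 2 with the smallest p. In all, 18 alternatives were run. They were normalization by quantiles or by array medians, log2 with 16 added, testing every set or the brightest 30%, eBayes with the trend left off, a replicate block, averaging the sets of a gene, a covariate holding the beta-actin ratio of middle to 3' sets, persimmon peel arrays 1 and 3 left out together, and each array left out in turn. Within-diet deviations of arrays with the same replicate number correlated between -0.08 and 0.05, so the numbers do not pair the livers.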

Additional observations from a re-analysis of the deposited data

Results flagged for a closer look

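In 4 of 76 groups of 4 arrays checked, 1 array stood far from the other 3 by Dixon's ratio at its 95% level, and chance gives about 5% of groups. For Cyp2c23, persimmon peel array 3 read 5450.1 units, above the other 3 of its diet. For Cyp3a2, control array 3 read 7789 units, below the other control arrays and nearest to the persimmon peel arrays. For Cyp2f4, a P450 known for oxidising naphthalene in lung, control array 3 read 804 units, below its diet. In the dimmer set of Cyp2d4, control array 4 read 209 units, above its diet.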

How the results depend on the processing

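The count of P450 genes called lower, 1 as reported, was 0 under quantile normalization, without the intensity trend, when a gene's sets were averaged, with the beta-actin covariate and without persimmon peel arrays 1 and 3 together, and 0 to 1 with each array left out. With the replicate block, which pairs livers by replicate number though the labels give no pairing, the 1 called gene was Cyp3a18 (limma adjusted p = 0.0159). Cyp2j3 lost its call there (limma adjusted p = 0.0628). The count of higher genes was 0 in every alternative run. The median log2 fold change of the members, -0.08, was -0.013 under quantile normalization, -0.16 with the covariate and -0.13 to -0.05 with each array left out. With the covariate the median of all tested sets shifted to -0.11, and since the ratio did not overlap between the diets, ratio and diet cannot be told apart well in this fit. For the lists of partner genes, 1 gene was called lower with no filter (Arnt), with the replicate block (Alas1) and when a gene's sets were averaged (Ghr), and 0 to 1 with each array left out, the 1 being Alas1 without control array 2. Over all sets, 703 lower and 66 higher calls became 596 and 271 under quantile normalization, 441 and 26 with no filter, 493 and 41 in the upper 30%, 486 and 33 without the trend, 359 and 26 when a gene's sets were averaged, 0 and 0 with the covariate, 596 and 60 with the replicate block, and 75 and 1 without persimmon peel arrays 1 and 3. With each array left out they were 295 (without control array 4) to 942 (without persimmon peel array 2) lower, and 12 (without persimmon peel array 1) to 267 (without persimmon peel array 2) higher. With the covariate, 543 sets had an unadjusted p under 0.05 (limma). The cause of these shifts was not tested. The dim signals of 8 P450 genes limit what can be said of them.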

Other observations

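Another 3 probe sets carried the symbols of 2 P450 genes each and were left out of the members. The set for Cyp2b2 or Cyp2b1, the rat genes best known for induction by phenobarbital through CAR, read 110.5, 76.7, 104 and 103 units on the persimmon peel diet and 127, 106, 79.5 and 149 on the control diet. The values overlapped (log2 fold change -0.21, SE 0.18, limma adjusted p = 0.572). The set for Cyp2a2 or Cyp2a1 read 4604, 4800.4, 4541 and 5022 units on the persimmon peel diet and 4929.7, 5666, 5410.3 and 5954 on the control diet. Only persimmon peel array 4 reached above control array 1, and the log2 fold change was -0.21 (SE 0.07, limma adjusted p = 0.104), while the sets of Cyp2a1 and Cyp2a2 alone were each at -0.07. The set for Cyp2d5 or Cyp2d1 overlapped between the diets, at -0.05 (SE 0.06, limma adjusted p = 0.721).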
